A study of Mus musculus with 12 samples.

Results

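The transcripts described here are those of glucocorticoid-responsive genes and metallothioneins in the triceps brachii, which extends the elbow, of 12 C57/BL6 mice, all male. The members were chosen by name, with earlier results of these data known. They are Nr3c1, the gene of the glucocorticoid receptor, the receptor's target genes Fkbp5, Tsc22d3, Klf15 and Sgk1, and the metallothionein genes Mt1 and Mt2. Of these 7 genes, 6 had a row among the 10187 genes of the table and 5 passed the filter on low values that left 7247 genes for testing. Mt2 had no row, so its values were not analysed here. Mt1 averaged 7.92 normalized reads, under the filter of 10, and was tested only in a fit without the filter.

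The design crossed activity with genotype, with 3 mice in each of 4 groups. The wild-type groups were inactive (IW) or active (AW), and so were the myostatin-reduced groups (IM and AM). Every mouse, wild-type included, ate chow containing 0.025% (w/w) tamoxifen for 6 weeks in all between 4 and 6 months of age. In mice with a floxed exon 3 of Mstn this treatment led to depletion of myostatin, a secreted inhibitor of muscle growth. The promoter that drove Cre, and whether the wild-type mice carried Cre, are not given in the sources used here. From 6 months of age the active mice lived in individual cages with a running wheel for 12 weeks. Single housing and wheel running therefore cannot be told apart, because the housing of the inactive mice over those weeks is not stated. The hour at which muscle was taken is not stated either.

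Corticosterone, the main glucocorticoid of mice, crosses the cell membrane and binds the glucocorticoid receptor, which waits in the cytoplasm with heat shock proteins and immunophilins. The occupied receptor enters the nucleus, binds short palindromic DNA elements as a dimer and raises or lowers transcription of nearby genes. In muscle, its targets include genes of protein breakdown and fuel use, and its hormone peaks daily around waking. Metallothioneins are small cysteine-rich proteins that bind zinc and copper, and their genes respond both to metals, through the transcription factor MTF1, and to glucocorticoids.

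Of the 6 members searched, which leave out Nr3c1, Mt1 and Sgk1 had letters in the 250 bases before an annotated start that fit the element recognised by the glucocorticoid receptor, and both stretches are shown for that reason. Sequences are from RefSeq's promoter table (GRCm38.p6) and each was found once, letter for letter, in NCBIM37, the mm9 build, whose coordinates are given. The capitals in Mt1 mark a match to a relaxed palindrome, the half-sites GNACA and TGTNC set 3 bases apart, 94 to 82 bases before the start, and a match to TGCACNC, a metal response element core, 23 to 17 bases before it. The capitals in Sgk1 mark a match to a stricter palindrome, the half-sites AGAACA and TGTTCT set 3 bases apart, 189 to 175 bases before 1 of 6 RefSeq starts. Both palindromes read alike on both strands, every strict match is also a relaxed match, and the metal element was searched on both strands as TGCGCNC or TGCACNC.
Mt1, chr8:96702739-96702988, plus strand: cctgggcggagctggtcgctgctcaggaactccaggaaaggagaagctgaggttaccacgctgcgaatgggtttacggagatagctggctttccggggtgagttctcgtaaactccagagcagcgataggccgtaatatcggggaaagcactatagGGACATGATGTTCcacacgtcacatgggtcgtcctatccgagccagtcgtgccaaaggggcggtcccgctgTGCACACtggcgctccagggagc
Sgk1, chr10:21713446-21713695, plus strand: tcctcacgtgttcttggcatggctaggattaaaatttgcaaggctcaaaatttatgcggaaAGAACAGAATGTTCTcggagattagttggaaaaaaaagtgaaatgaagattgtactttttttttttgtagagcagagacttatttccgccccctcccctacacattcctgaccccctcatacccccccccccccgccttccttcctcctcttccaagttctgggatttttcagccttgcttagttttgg

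Over 32851 RefSeq promoters of the same length, 3 (0.00913%) held the strict palindrome, 127 (0.387%) held the relaxed one and 7032 (21.4%) held either form of the metal element. Neither palindrome was found before the other 5 starts of Sgk1, the 3 starts of Tsc22d3 or the single starts of Fkbp5, Klf15 and Mt2. The metal element was not particular to Mt1, since it was found 3 times before Mt2, a count that 1.26% of all promoters reached, and once before Klf15. A match describes the letters in this window and no binding was measured. In NCBIM37, Mt2 lies at chr8:96696518-96697467 and Mt1 at chr8:96702989-96704225, both on the plus strand with 5521 bases between them. The other members lie apart. Fkbp5 is at chr17:28536040-28654469 (minus strand), Tsc22d3 at chrX:137074067-137135198 (minus), Klf15 at chr6:90412570-90425232 (plus), Sgk1 at chr10:21601990-21719709 (plus) and Nr3c1 at chr18:39570199-39650955 (minus). Values were summed over each gene's exons.

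Values are normalized reads, which are read counts scaled by the authors to a common trimmed mean and not divided by gene length. Estimated depth was 9023561 to 12184086 reads per mouse in the genes of the table. At that depth Tsc22d3 rested on an estimated 1397 to 3103 reads, whereas Mt1 rested on 44 (95% Poisson interval 32.0 to 59.1) to 154 (130.6 to 180.3) reads. These intervals cover counting error only. Skeletal muscle markers were present for 11 of 11 genes and made up 21.2% to 27.3% of the summed values. Mstn was lower in every myostatin-reduced mouse than in every wild-type mouse, at 15.9 against 105 normalized reads (log2 change -2.66, adjusted p = 1.29e-06, limma). The tissue was bulk muscle, so fewer cells of a type and less RNA per cell cannot be told apart in any value that follows.

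Divided by exonic length, the members were expressed at levels within 1 order of magnitude. Mean levels per kilobase of exon were 43.9 normalized reads for Tsc22d3 (31 to 65 over the 12 mice) and 41.6 for Sgk1 (30.0 to 53.5). Nr3c1 followed at 18.0 (14.5 to 21.1), then Klf15 at 12.8 (10.1 to 17.4), Mt1 at 10.5 (6.16 to 18.2) and Fkbp5 at 7.74 (6.19 to 9.67). Each neighbouring pair in this order overlapped in range except Sgk1 and Nr3c1.

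**Figure D1:**
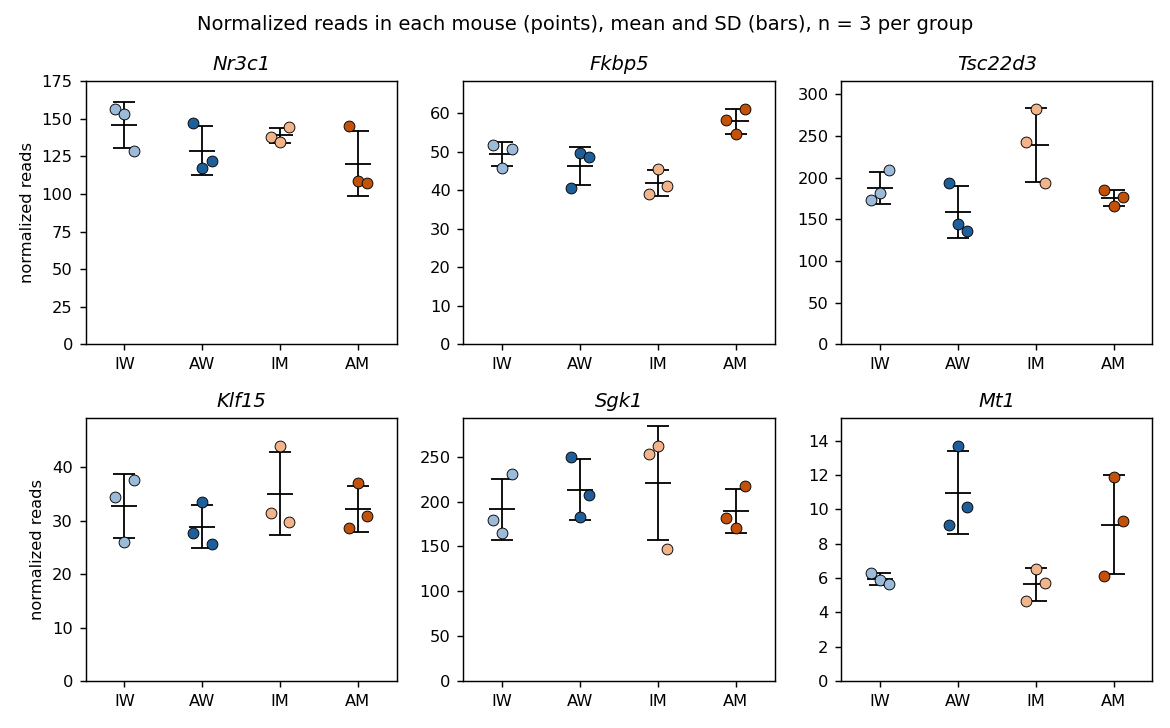
Normalized reads (linear axes from 0) of the 6 members with a row, by group, with each mouse as a point and the group mean and SD (n = 3) as a bar. The mean of Fkbp5 was lowest in IM and highest in AM, Tsc22d3 was lower in AM than in IM, and Mt1 was at or above 9.09 in 5 of the 6 active mice and at or below 6.55 in the 6 inactive mice.

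Of the 5 members tested, 1 was called between active and inactive mice, against 14.5% of all tested genes, with an adjusted p under 0.05 taken as a call. That member was Tsc22d3, which was lower in active mice, as were 6.51% of all genes. At an unadjusted p under 0.05, 3 of 5 passed, against 30.2% of all genes. In the fit without the filter, Mt1 was also called, as higher in active mice, against 6.24% of 10187 genes. Every row of the table has a mean of at least 3.0 normalized reads in its highest group. Shares over all rows are therefore shares of genes that reach this level in at least 1 group. The median log2 change of the 5 members was -0.14, and that of all tested genes was -0.02.

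**Figure D2:**
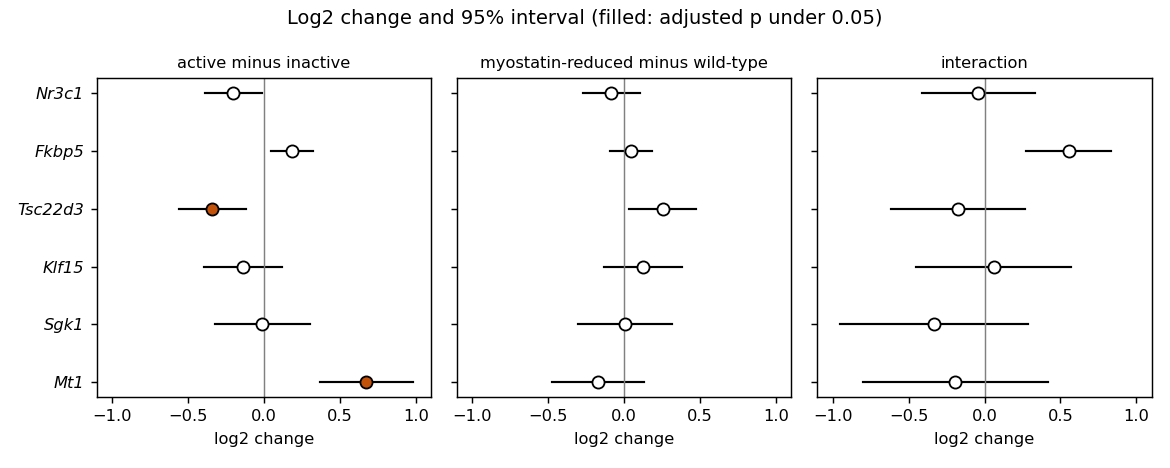
Log2 changes with 95% confidence intervals of the members for activity, genotype and their interaction; filled points are called at an adjusted p under 0.05. Tsc22d3 (-0.34) and Mt1 (0.67, fitted without the filter) are called for activity, and the interval for the Fkbp5 interaction (0.28 to 0.83) does not reach 0 although its adjusted p is 0.890.

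The receptor itself showed a small range over the 12 mice. Nr3c1 stood at 156, 153 and 128 normalized reads in the IW mice and at 148, 117 and 122 in the AW mice. It stood at 138, 135 and 144 in the IM mice and at 145, 108 and 107 in the AM mice. Active and inactive mice overlapped, with 4 of 6 active mice below every inactive mouse, and the first mouse of each active group lay among the inactive ones. The log2 change with activity was -0.20 (SE 0.0863, adjusted p = 0.137) and that with genotype was -0.09 (adjusted p = 0.604). Without the first AM mouse, the activity change was -0.27 and passed the test (adjusted p = 0.0233).

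Fkbp5 encodes FKBP51, an immunophilin that joins the receptor complex, lowers its affinity for hormone and is itself induced by the receptor. Fkbp5 stood at 51.7, 45.9 and 50.6 normalized reads in the IW mice and at 39.1, 45.6 and 41.1 in the IM mice. It stood at 40.5, 49.8 and 48.6 in the AW mice and at 58.3, 54.5 and 61.1 in the AM mice. Every AM mouse thus lay above every IM and every AW mouse, and every IM mouse lay below every IW mouse, while IW and AW overlapped. Of all genes, 29.8% did not overlap between AM and IM, 15.2% between AM and AW and 25.8% between IM and IW.

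In myostatin-reduced mice Fkbp5 was 38.3% higher with activity (log2 change 0.46, SE 0.0910, 95% CI 0.26 to 0.66, adjusted p = 0.0132, limma). It was the only member of 5 called in this comparison, in which 7.84% of all genes were called (5.31% as higher) and 29.8% did not overlap between AM and IM. The call was lost without the first IM mouse (0.41, adjusted p = 0.0535) or without the third IM mouse (0.45, adjusted p = 0.0586). A slow-fibre score was also tried as covariate, namely each mouse's mean log2 deviation over 11 genes of slow muscle fibres, and the change was then 0.38 (adjusted p = 0.0598). Between AM and IM, 5 of 7 endothelial genes were also called as higher (median 0.72), with summed values of 237 to 252 in IM and 309.5 to 510 in AM mice. The slow-fibre genes had a median change of 2.5 there, with 1 of 11 called. Of 11 skeletal muscle genes, 1 was called as higher and 1 as lower there. Among inactive mice, 5 of the 8 endothelial genes (Pecam1, Kdr, Tek, Tie1 and Emcn) lay lower in every IM than in every IW mouse, as Fkbp5 did and beside 25.8% of all genes without overlap, and all 5 overlapped between AM and AW. The other 3 overlapped between IM and IW, with means lower in IM for Cdh5 and Cldn5 and higher for Vwf. The part of endothelial cells in the values of Fkbp5 was not tested, and that of muscle fibres was not tested beyond the slow-fibre covariate. In wild-type mice the difference between AW and IW was -0.10 (adjusted p = 0.682), and 0.0276% of all genes (2 genes) were called there, a count of 198 without the first AW mouse.

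Between genotypes, the difference in Fkbp5 was -0.23 among inactive mice (adjusted p = 0.210) and 0.32 among active mice (adjusted p = 0.212). Neither difference passed the test, and the groups did not overlap in either, as was the case for 25.8% and 15.2% of all genes. In these comparisons 2.51% and 0.207% of all genes were called, and 0 of 5 members (2 and 1 were under 0.05 before adjustment, Fkbp5 in both and Tsc22d3 among inactive mice). The interaction was 0.55 (SE 0.129, 95% CI 0.28 to 0.83). Its unadjusted p was 0.000917, which ranked 4 among 7247 genes, and its adjusted p was 0.890. No gene was called for the interaction (0.0% of 7247 genes by limma, with 4.1% at an unadjusted p under 0.05). Of the members, 0 of 5 were called and 1, Fkbp5, was under 0.05 before adjustment. Fkbp5 was also 1 of 10 tested genes (0.138%) whose genotypes separated without overlap in opposite directions in inactive and active mice. Over both activity levels together, the activity change of Fkbp5 was 0.18 (adjusted p = 0.0754) and the genotype change 0.04 (adjusted p = 0.735).

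Tsc22d3 encodes GILZ, a leucine zipper protein that carries part of the anti-inflammatory action of glucocorticoids. It was measured at 173, 181 and 209 normalized reads in the IW mice and at 194, 145 and 137 in the AW mice. The IM mice were at 243, 282 and 194, and the AM mice at 185, 166 and 177. AM and IM did not overlap, as was the case for 29.8% of all genes, AW and IW did, and the IM mice held the highest 2 values.

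The means were 213.6 in inactive and 167.3 in active mice, a difference of -21.7% (log2 change -0.34, SE 0.102, 95% CI -0.56 to -0.12, adjusted p = 0.0421). Within genotypes the changes were -0.25 in wild-type (adjusted p = 0.452) and -0.43 in myostatin-reduced mice (adjusted p = 0.0846), and the interaction was -0.17 (adjusted p = 0.911). In a fit of AM and IM alone with the replicate number as a block, Tsc22d3 was called between them (-0.43, adjusted p = 0.0301). That fit was chosen after the data were seen, and the labels do not pair mice. With the block in the fit of all 4 groups the adjusted p was 0.0904. Between AM and IM, 2 of 12 alternative settings called Tsc22d3, the fit of these groups alone among them. So did 1 of 12 fits without 1 mouse. Leaving out 1 mouse at a time kept the activity change between -0.42 and -0.28. The activity call was lost without any of 8 of the 12 mice, the largest adjusted p being 0.108 without the third AW mouse. With a slow-fibre score as covariate the activity change was -0.25 (adjusted p = 0.213). Between genotypes the change was 0.25 (adjusted p = 0.164), and without the first AW mouse it was 0.33 and passed (adjusted p = 0.0428).

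Sgk1 encodes a kinase of ion transport and cell survival that was named for its induction by serum and glucocorticoids. The IW mice were at 179, 165 and 230 normalized reads and the AW mice at 250, 183 and 207. The IM mice were at 253, 262 and 147 and the AM mice at 181, 171 and 217. All groups overlapped, and the IM mice held both the lowest and the highest value. The log2 change was -0.01 with activity (95% CI -0.32 to 0.30, adjusted p = 0.969) and 0.0039 with genotype (adjusted p = 0.990), and these signs turned under other settings. The interaction was -0.33 (adjusted p = 0.895).

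Klf15 encodes a transcription factor that acts in amino acid and lipid use of muscle. Its values were 34.5, 26.1 and 37.7 normalized reads in the IW mice, 27.7, 33.5 and 25.6 in the AW mice, 31.5, 44.0 and 29.8 in the IM mice, and 28.6, 37.0 and 31.0 in the AM mice. The 4 groups overlapped. The change with activity was -0.14 (95% CI -0.39 to 0.12, adjusted p = 0.459) and that with genotype was 0.12 (adjusted p = 0.591). The interval of Klf15 still holds the change measured for Tsc22d3, and that of Sgk1 ends just short of it.

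Mt1, the metallothionein with a row, had the largest ratio between active and inactive means among the 6 members measured. The IW mice were at 6.29, 5.90 and 5.64 normalized reads and the IM mice at 4.64, 6.55 and 5.70. The AW mice were at 9.09, 13.7 and 10.2 and the AM mice at 6.13, 11.9 and 9.33. Every AW mouse lay above every inactive mouse, and the first AM mouse was the single active animal within the inactive range. AW and IW did not overlap, as was the case for 16.2% of all rows of the table.

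The mean of Mt1 was 10.04 ± 2.59 (SD, n = 6) in active mice and 5.79 ± 0.662 (SD, n = 6) in inactive mice, a ratio of 1.74. In the fit without the filter the log2 change was 0.67 (SE 0.141, 95% CI 0.37 to 0.98, adjusted p = 0.0103). It understates the change of so low a gene, because 1 was added before the logarithm. The call held without any 1 of the 12 mice (0.58 to 0.79), and with a slow-fibre score as covariate the change was 0.58 (adjusted p = 0.0684). Within genotypes the changes were 0.77 in wild-type (adjusted p = 0.131) and 0.58 in myostatin-reduced mice (adjusted p = 0.105). Without the first AM mouse the latter was 0.81 and passed (adjusted p = 0.0161). In the fit of AM and IM alone with the block, chosen after the data were seen, it was 0.58 and passed (adjusted p = 0.0295). With sample weights the wild-type change was 0.82 and passed (adjusted p = 0.0378). Most settings called neither change. The wild-type change was called in 1 of 8 settings and in 0 of 12 fits without 1 mouse. The myostatin-reduced change was called in 1 of 10 and 1 of 12. The interaction was -0.19 (adjusted p = 0.934) and the genotype change was -0.17 (adjusted p = 0.552).

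Markers of muscle fibres and of other cells moved with activity too. Of 11 skeletal muscle genes 3 were called, beside 14.5% of all genes, and 2 to 4 without 1 mouse. Myh1 was higher in active mice (log2 change 1.51, adjusted p = 0.0019, limma). Myh4 (-0.57, adjusted p = 0.0127) and Atp2a1 (-0.30, adjusted p = 0.0384) were lower. Of 7 endothelial genes tested, 5 were called for activity, all as higher in active mice, beside 14.5% of all genes called, and the summed endothelial values were 237 to 347 in inactive and 267 to 510 in active mice. Without 1 mouse the endothelial count was 3 (without the second IW mouse) to 6 (without the first AW mouse). With the slow-fibre score as covariate 0 of 7 were called. Fabp4, a fatty acid carrier of capillaries and adipocytes, was the gene most like Mt1 over the 12 mice and was itself higher in active mice (log2 change 0.64, adjusted p = 0.00331). The first AW mouse had the lowest endothelial sum of the active mice, 267, with an Mt1 of 9.09, and the first AM mouse had the next lowest, 309.5, with an Mt1 of 6.13. Summed slow-fibre transcripts ranged from 78.3 to 1370 in inactive and from 117 to 1831 in active mice, with a median log2 change of 1.80 over 11 genes, of which 1 was called. The count of slow-fibre calls was 1 to 7 without 1 mouse (7 without the first AW mouse) and 7 with sample weights. Of 3 leukocyte and 6 fibroblast genes tested, 0 were called for activity by limma, with 0 and 3 under 0.05 before adjustment. The fibroblast count was 0 to 3 without 1 mouse (3 without the second AM mouse) and 2 with the slow-fibre score as covariate. Of 8 adipocyte genes listed, 6 had rows, and their sums were 106 to 180 in inactive and 138 to 234 in active mice. Fabp4 and Cfd were tested, and Cfd was not called (0.31, adjusted p = 0.526). The other adipocyte genes were under the filter, with active and inactive means of 5.09 and 6.21 for Adipoq, 2.25 and 2.83 for Plin1, 3.63 and 4.09 for Cidec and 2.92 and 1.81 for Pparg. The part of these other cells in the values of Mt1 and Tsc22d3 was not tested. That of muscle fibres was not tested beyond the slow-fibre covariate.

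**Figure D3:**
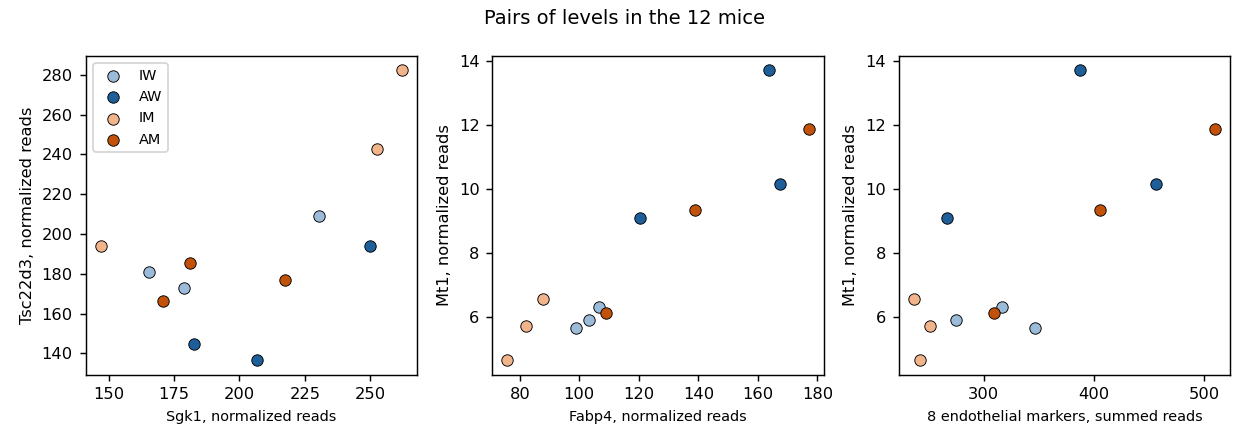
Values in each of the 12 mice, coloured by group, for Tsc22d3 against Sgk1, Mt1 against Fabp4 and Mt1 against 8 summed endothelial markers, all in normalized reads on linear axes that do not start at 0. Mt1 and Fabp4 rise together across the mice, and among active mice the endothelial sum runs from 267 (the first AW mouse, Mt1 9.09) to 510; the highest values of Tsc22d3 and of Sgk1 are in the same IM mouse.

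The genes that act on the receptor were described from a list of 20 (chaperones, co-regulators and enzymes of corticosterone), of which 17 were tested. With activity 2 of 17 were called, beside 14.5% of all genes, and the median log2 change of the 17 was -0.02, as was that of all genes. Bag1, a co-chaperone of heat shock proteins, had medians of 158 normalized reads in active and 141 in inactive mice and was higher (0.19, adjusted p = 0.0225). H6pd makes the cofactor with which the enzyme of Hsd11b1 regenerates active hormone, and it was lower in active mice (-0.26, adjusted p = 0.0279; medians 73.8 and 88.1). Leaving out 1 mouse gave between 0 calls (without the second IW mouse) and 4 (without the first AM mouse). For genotype (5.78% of all genes called) and interaction (0.0%), 0 were called by limma, with 2 and 0 under 0.05 before adjustment.

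A wider list of 36 genes named as glucocorticoid targets in muscle had 34 rows and 30 tested genes. With activity 1 was higher and 4 were lower, so 5 of 30 were called beside 14.5% of all genes. Ctsl, a lysosomal protease gene, was 65.8 to 71.5 in inactive and 77.4 to 86.7 in active mice (0.24, adjusted p = 0.00530). Irs2, an adaptor of the insulin receptor, was 10.2 to 18.4 in inactive and 6.98 to 12.0 in active mice (-0.61, adjusted p = 0.0243). Txnip, an inhibitor of glucose uptake and thioredoxin, was lower as well (-0.31, adjusted p = 0.0217), and so was the transcription factor gene Klf9 (-0.25, adjusted p = 0.0272). Without 1 mouse the count of calls ranged from 1 (without the third AW mouse) to 10 (without the first AW mouse). The median change of the list was -0.05.

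With genotype, 5 of the 30 were called, all higher in myostatin-reduced mice, beside 5.78% of all genes called and 3.57% called higher. The list was written by hand with earlier results of these data known, so its excess over these shares is not evidence. Of the 5 members, 0 were called and 1, Tsc22d3, was under 0.05 before adjustment (22.5% of all genes were). Igfbp5, which binds insulin-like growth factors, was 507 to 1224 normalized reads in wild-type and 1141 to 1886 in myostatin-reduced mice (1.13, adjusted p = 0.00719). Glul, the glutamine synthetase gene, was 127 to 168 and 207 to 305 (0.65, adjusted p = 0.00263). Tgm2, a transglutaminase gene, was 76.7 to 111 and 120 to 141 (0.47, adjusted p = 0.00734), and Lpin1, a phosphatidate phosphatase gene, was 457 to 517 and 551 to 590 (0.24, adjusted p = 0.00900). Without 1 mouse the count was 4 to 6, and the median change of the list was 0.12 against 0.00 for all genes. No muscle marker was called for genotype in the main fit, although 10 of 11 skeletal muscle genes had a change above 0 (median 0.18, 6 under 0.05 before adjustment) and 0 of 11 slow-fibre genes did (median -1.30, 1 under 0.05 before adjustment). Without the first AW mouse 2 skeletal muscle genes and 1 slow-fibre gene were called, and with sample weights 2 and 0 were. With the slow-fibre score as covariate the list had 4 genotype calls and 3 activity calls, and the part of these markers was not tested beyond that. For the interaction 0 of 30 were called, and 0 were under 0.05 before adjustment.

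The list of metal-handling genes held 26, of which 16 were tested. Slc31a1, the copper importer gene, was 22.4 to 27.8 in inactive and 28.5 to 31.8 in active mice (0.28, adjusted p = 0.00867), and it was the only one called for activity. So 1 of 16 was called, beside 14.5% of all genes, and the median change of the list was -0.01. Slc30a2, a zinc transporter gene, was the 1 of 16 called for genotype, beside 5.78% of all genes. It was lower in myostatin-reduced mice (-0.58, adjusted p = 0.0227) and lost this call without the third AW mouse. Mtf1, the metal-sensing transcription factor gene, was 31.3 to 38.4 in inactive and 28.7 to 35.7 in active mice and was not called.

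Because glucocorticoids follow the day and the sampling hour is unknown, clock genes were read as well. Of 15 tested, 6 were called as lower and 1 as higher in active mice, beside 14.5% of all genes called and 6.51% called lower, and the median change of the 15 was -0.34. The clock list too was written with earlier results of these data known, so its excess over these shares is not evidence. Hlf, a clock output factor, was 13.3 to 20.6 in inactive and 9.75 to 15.0 in active mice (-0.55, adjusted p = 0.00726). The count of calls was 1 without the second IW mouse, 8 without the first AM mouse and 1 with the slow-fibre score as covariate. With genotype 1 of 15 clock genes was called, beside 5.78% of all genes. It was Cry2, higher in myostatin-reduced mice (log2 change 0.49, adjusted p = 0.0137, limma). Of the 15, 11 had a genotype change above 0 (median 0.14). Before adjustment 4 were under 0.05, beside 22.5% of all genes. The part of sampling hour in the values of Tsc22d3 and of the target list was not tested.

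**Figure D4:**
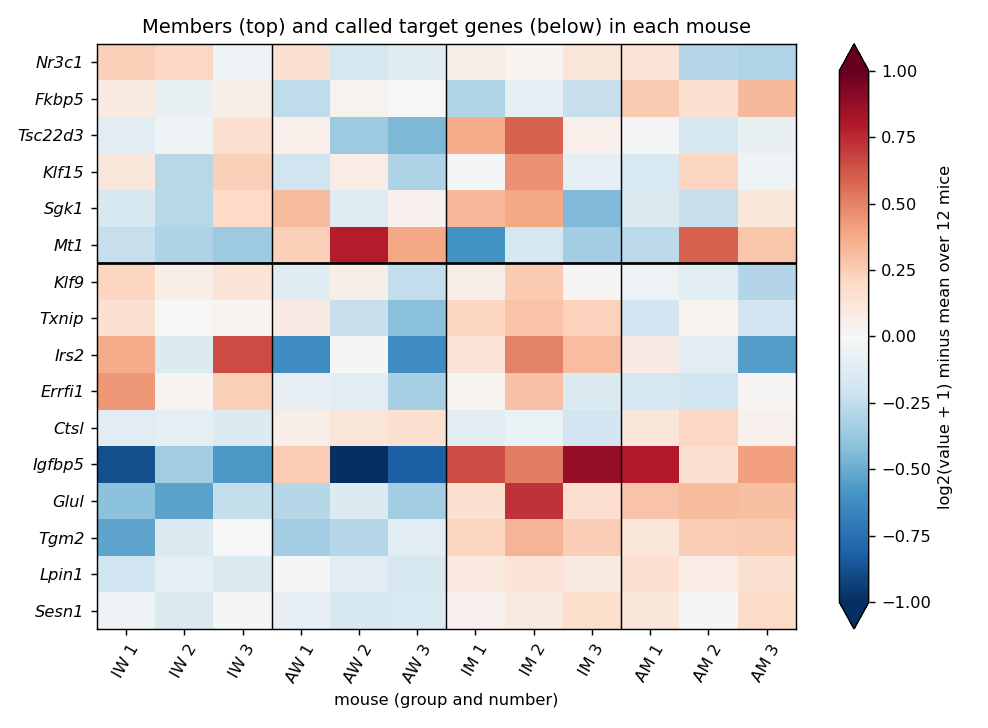
Log2 deviation of each gene from its own mean over the 12 mice (colour scale), with mice in columns by group and, in rows, the members followed by the target-list genes that were called for activity or genotype. The rows below the members were selected by those calls, so their contrast is not evidence. In the row of Fkbp5 the AM columns lie above the IM and AW columns, and the IM columns lie below the IW columns.

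Over the 12 mice, Pearson correlations of log2 values among the 15 pairs of members ran from -0.69 to 0.55, and 6 were above 0. After each group's mean was removed they ran from -0.68 to 0.82, and 8 were above 0. Those of at least 0.5 in size over the 12 mice were 0.55 for Tsc22d3 and Sgk1, 0.51 for Tsc22d3 and Klf15, -0.69 for Nr3c1 and Mt1, -0.68 for Tsc22d3 and Mt1 and -0.50 for Nr3c1 and Fkbp5. Within groups these were 0.82, 0.36, -0.68, -0.30 and -0.42 in the same order, Klf15 and Mt1 stood at 0.61, and Nr3c1 and Klf15 at -0.50. Nr3c1 was most like Asb15 (r = 0.949), Rev1 (0.942) and Osbp (0.937), and Fkbp5 was most like Ptdss1 (0.855), Luc7l (0.819) and Npr2 (0.812). Tsc22d3 was most like 1110012L19Rik (0.889), Sema4d (0.888) and D19Wsu162e (0.884). Klf15 was most like Cebpb (0.810), itself on the target list, Numa1 (0.809) and Plin4 (0.799), Sgk1 most like Znhit3 (0.818), Dguok (0.782) and Snx8 (0.751), and Mt1 most like Fabp4 (0.93), Timm10 (0.908) and Tmsb4x (0.907). These are the highest of 7247 values each, over mice that share groups, and are descriptions.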

How the data were processed

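RNA of the triceps brachii of 12 mice, 3 in each of 4 groups taken from the sample titles, was used. Polyadenylated RNA was read by the authors as 65-base single-end reads, mapped with CASAVA (version not given in the sources used here) to mm9 and counted in RefSeq exons summed to genes. The deposited signal is a normalized read count that the authors scaled so that trimmed means were equal. Strand use is not given in the sources used here.

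The step between low values, the worth of 1 read, was 0.0770 to 0.105, so a floor of 3 reads was 0.231 to 0.316 normalized reads. Of values between 20 and 50, 65.9% to 69.8% were whole multiples of the step (tolerance 0.0051), so whole reads were not recovered and no count test was run. The fit was made by limma (version 3.58.1, run in R 4.3.3) to log2(value + 1) of the 7247 genes whose mean reached 10, with 1 mean per group, a variance trend, two-sided p-values and Benjamini-Hochberg adjustment over all genes tested. Scripts were tested on simulated data. Alternatives covered pseudocounts, filters, scalings, weights, the variance trend, a replicate block, a slow-fibre covariate and leaving out each mouse. The labels do not say that replicate numbers pair mice. Deviations of same-numbered IM and AM mice correlated at 0.236, 0.171 and 0.322, all above 0.1, and in the other 5 pairs of groups at least 1 correlation was below it, so AM and IM alone were also fitted with the number as a block. That fit was added after the data were seen. Mt1 was tested without the filter, and Mt1 under a second change of setting was added after its values were seen.

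The members and gene lists were chosen with earlier results of these data known. Named were the members, Mstn, per list and contrast at most the 4 called genes of smallest p, and the 3 genes most correlated with each member. Hsd11b1, Mtf1 and the adipocyte and endothelial genes were also named, after their values were seen. Positions are from the NCBIM37 annotation.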

Additional observations from a re-analysis of the deposited data

Results flagged for a closer look

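The Fkbp5 values of the genotypes lay apart in opposite directions at the 2 activity levels. Every IM mouse was below every IW mouse and every AM mouse was above every AW mouse, a pattern held by 10 of 7247 tested genes (0.138%). Among inactive mice the gap was small, from 45.56 to 45.85 normalized reads, and neither genotype difference passed the test (adjusted p = 0.210 among inactive and 0.212 among active mice). The difference between them was tested as the activity-by-genotype interaction, with a log2 value of 0.55 (limma), an unadjusted p of 0.000917 and an adjusted p of 0.890, so it did not pass the correction over all genes.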

How the results depend on the processing

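The number of members called for activity, 1 of 5, became 0 with quantile normalization, without the variance trend and with the slow-fibre score as covariate, 3 with sample weights, and 0 to 2 when 1 mouse was left out. For genotype it was 0, 1 with sample weights and 0 to 1 without 1 mouse. For AM against IM it was 1, and it was 0 with the filter at a mean of 50 (which removes Fkbp5, mean 48.9) and with the covariate, 2 with weights and 0 to 2 without 1 mouse. No member was called for the interaction in any of these settings. Tsc22d3 with activity was -0.30 with quantile normalization (adjusted p = 0.0611) and -0.42 with weights (adjusted p = 0.00687). Small changes turned in sign. Sgk1 with activity was 0.026 with quantile normalization and 0.084 with the covariate, and with genotype -0.0037 and -0.065. The interaction of Nr3c1 was 0.012 with weights, that of Klf15 -0.0065 with the covariate, and IM minus IW of Mt1 was 0.024 with the covariate. Without 1 mouse, the ranges that crossed 0 were, for Sgk1, -0.14 to 0.063 (activity) and -0.070 to 0.14 (genotype), for Fkbp5 -0.00065 to 0.072 (genotype), and for the interactions of Nr3c1 -0.18 to 0.060, Klf15 -0.046 to 0.23 and Mt1 -0.39 to 0.038. They were -0.21 to 0.063 for AM minus IM of Klf15, and for IM minus IW -0.078 to 0.20 (Klf15) and -0.17 to 0.036 (Mt1). The cause of these shifts was not tested. With the number as a replicate block Tsc22d3 with activity stayed called (adjusted p = 0.0491), and no member's call changed in that fit of all 4 groups. In the fit of AM and IM alone, chosen after seeing the data, the block raised the members called from 1 to 2 of 5 (Tsc22d3 added), let Mt1 pass as well and left Fkbp5 called (adjusted p = 0.00972), with 1082 of all genes called against 536 without the block. Over all genes, 1051 were called for activity, 1740 with weights, 401 with the covariate and 552 to 1488 without 1 mouse; for genotype 419, 272 with the filter at 50 and 182 to 573 without 1 mouse; for AM against IM 568, 931 with weights, 187 with the covariate and 86 to 1098 without 1 mouse. For IM against IW the count was 182, 98 with the block, 334 with weights, 115 with the covariate and 23 to 216 without 1 mouse. For AM against AW it was 15, 9 with the block, 7 with the filter at 50, 29 with the covariate and 4 to 18 without 1 mouse. For AW against IW it was 2, 39 with the filter at 50, 415 with weights, 28 with the covariate, 0 with the block and 0 to 198 without 1 mouse. Depth limits Mt1 most.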
